A study of Homo sapiens with 11 samples.

Results

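The genes described here were 10 that encode AP-1 proteins and other immediate early factors, taken from the gene column of the count, RPM and RPKM tables by symbol: FOS, FOSB, FOSL1, FOSL2, JUN, JUNB, JUND, EGR1, ATF3 and IER2. All 10 were among the 25590 genes of the tables, and all 10 were among the 16630 genes with enough reads to be tested. They were followed through 11 xenograft tumours of PC-3, a human prostate carcinoma cell line without the secretory markers of the luminal prostate. In the PBS group (5 tumours, tumor_123 to tumor_127, named as in the labels without the prefix PC3) the host mice had received injections of buffer into the abdominal cavity, and in the A2M* group (6 tumours, tumor_128 to tumor_132 and tumor_112) they had received A2M*, the transformed form of the protease inhibitor alpha2-macroglobulin, which the labels call A2M. Both groups had the same hosts, adult male athymic nude mice, which lack T cells, and the same cells, injected under the skin in Matrigel. All tumours came from 1 cell line, and each tumour gave 1 library. The animals were killed by cervical dislocation under anaesthesia and the tumours were shock frozen. How long each tumour waited between death and freezing was not given in the sources used here, so handling of the tissue could not be tested and cannot be told apart from the differences between single tumours described below.

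AP-1 is a dimeric transcription factor. Proteins of the JUN family pair with each other or with proteins of the FOS family through a leucine zipper and bind short DNA elements in promoters and enhancers, whereas FOS proteins need a JUN partner. Most of these genes are immediate early genes, whose transcripts rise within minutes of a growth factor, a stress or an injury without new protein synthesis and decay quickly, and for that reason their levels in excised tissue are sensitive to the way it was handled. ATF3 is a related zipper protein induced by stress, EGR1 is a zinc finger factor induced through serum response factor, and IER2 is a small nuclear protein of the immediate early class. JUND and FOSL2 are usually the steadier members, and FOSL1 is the FOS protein that persists where the MAP kinase pathway stays active, as in many carcinoma lines.

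The tumours held between 16958533 and 35874381 counts on human genes, so that 3 counts, taken as the least that could be shown, equalled 0.0836 to 0.177 RPM (reads per 1000000 reads; counting error only). The epithelial markers KRT8, KRT18 and EPCAM were abundant in every tumour (at least 205, 257 and 130.8 RPKM), as was VIM, a mesenchymal marker (at least 232 RPKM). KLK3, the prostate specific antigen gene, had 0 counts in every tumour and KLK2 had at most 1. Markers of stroma, vessels and leukocytes summed to 378 to 725 RPM in the PBS group and 375 to 982 RPM in the A2M* group, with the collagen gene COL1A1 between 49.7 and 148 RPKM and DCN, a defining fibroblast marker, at no more than 3 counts in any tumour. Of these markers 11 were tested, with 6 higher, 5 lower and 0 past the test in the A2M* group. Also tested were 7 markers of the carcinoma cells, VIM included (0 higher, 7 lower, 0 past the test), and 3 luminal ones (2 higher, 1 lower, 0 past the test). The part of all these markers in the results below was not tested. Counts are of reads assigned to human, and the only human cells in these tumours were PC-3. Reads on stroma, vessel and leukocyte markers thus do not count host cells. COL1A1 had 7677 to 28262 counts per tumour, against 38 to 170 for COL1A2. Whether such reads came from PC-3 or from mouse reads assigned to human was not tested. For the PC-3 cells, a change in some of the cells and in the RNA per cell cannot be told apart in such bulk samples.

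Levels can be compared between genes only per length, and for that the deposited RPKM values (RPM per kilobase of exon) were used. IER2 was highest with a median of 111.9 RPKM over the 11 tumours (84.5 to 146), followed by JUNB with 68.5 (35.2 to 93.7), FOSL1 with 61.1 (40.0 to 91.6) and JUN with 44.2 (38.1 to 74.1). A middle group was formed by JUND with a median of 16.5 RPKM (9.86 to 26.7), FOSL2 with 16.2 (13.8 to 21.2) and ATF3 with 12.0 (8.19 to 30.8). The classical serum-induced genes were lowest, FOS with a median of 0.749 RPKM (0.512 to 5.09), FOSB with 0.702 (0.381 to 1.79) and EGR1 with 0.515 (0.278 to 0.633).

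**Figure D1:**
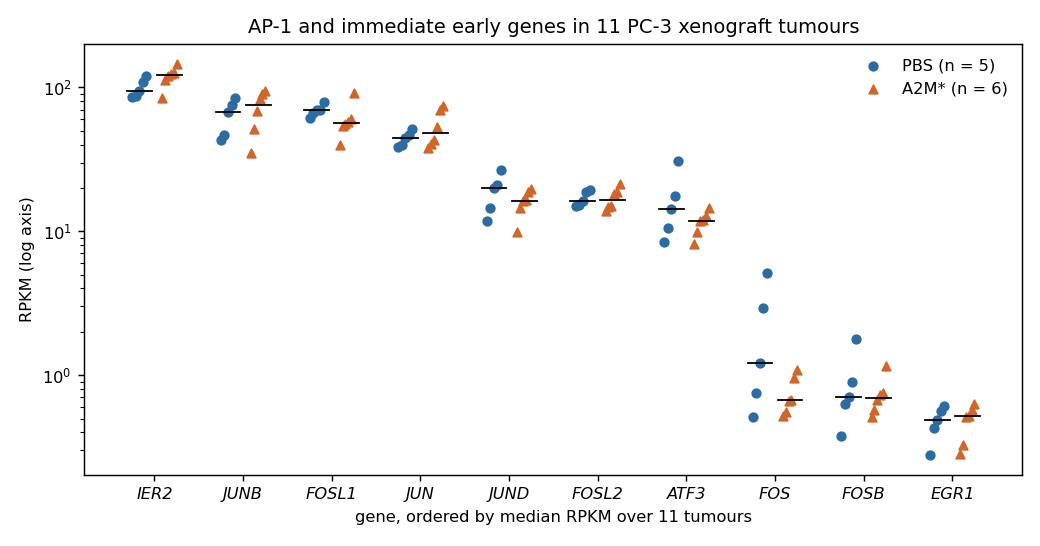
RPKM (log axis) of each gene in each tumour, with genes ordered by their median over 11 tumours. Circles are the 5 PBS tumours, triangles the 6 A2M* tumours and the lines the group medians. FOS, FOSB and EGR1 lie below 6 RPKM in every tumour, and the PBS tumours with FOS at 5.09 and 2.92 RPKM stand above all others.

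Between neighbours in this order the within-tumour difference was tested on log2(RPKM + 0.1) with a two-sided exact sign-flip test over the 11 tumours, adjusted over the 9 neighbour pairs, where the smallest possible unadjusted p was 0.000977. The step from ATF3 down to FOS was the widest, 3.53 ± 0.584 (SD) on the log2 scale, with ATF3 higher in 11 of 11 tumours (exact test, adjusted p = 0.00293). IER2 also exceeded JUNB, by 0.75 ± 0.344, and JUN exceeded JUND, by 1.51 ± 0.525, each in 11 of 11 tumours (exact test, adjusted p = 0.00293 for both). FOSL1 exceeded JUN in 9 of 11 tumours by 0.39 ± 0.385 (exact test, adjusted p = 0.0211), and FOSB exceeded EGR1 in 10 of 11 by 0.58 ± 0.526 (exact test, adjusted p = 0.00439). The other 4 neighbouring pairs did not differ beyond their spread: JUNB and FOSL1 (exact test, adjusted p = 0.928), JUND and FOSL2 (0.928), FOSL2 and ATF3 (0.0571), and FOS and FOSB (0.0891).

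Within the FOS family the most abundant transcript was that of FOSL1, which made up between 72.7% and 80.6% of the summed RPKM of FOS, FOSB, FOSL1 and FOSL2 in every tumour. FOS and FOSB together contributed between 0.955% and 7.27%. Within the JUN family, JUND contributed between 9.25% and 19.1% of the summed RPKM of the 3 genes. These shares are of transcript and not of protein.

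The next question was which of the 10 genes differed between tumours of A2M*-treated and PBS-treated mice. None of them differed at the threshold of 0.01 on the adjusted p of edgeR's quasi-likelihood test, and neither did any of the 16630 genes tested (0.0%), where the smallest adjusted p was 0.599. Limma-voom called 0 genes and DESeq2 called 1, REP15, which is none of the 10. FOS had the lowest values relative to PBS, at 0.336 of the PBS level, followed by ATF3 at 0.683 of it, whereas JUN and IER2 had slightly higher fitted values in the A2M* group. At an unadjusted p under 0.05 edgeR held 1 of the 10 genes, FOS, which was lower, against 7.08% of all genes in either direction (3.53% lower and 3.55% higher). FOS was also the 1 gene of the 10 with an unadjusted p of 0.01 or less in edgeR and in DESeq2 alike, against 1.45% of all genes. The groups overlapped in all 10 genes, while they did not overlap in 0.71% of all genes. The median log2 fold change was -0.14 over the 10 genes and -0.0021 over all genes tested, with 3 of the 10 above 0 and 7 below, of which FOSL2 and EGR1 were above 0 with library sizes alone. Nothing in the labels says more about the tumours than that they are separate samples, so the p-values measure the spread between tumours.

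**Figure D2:**
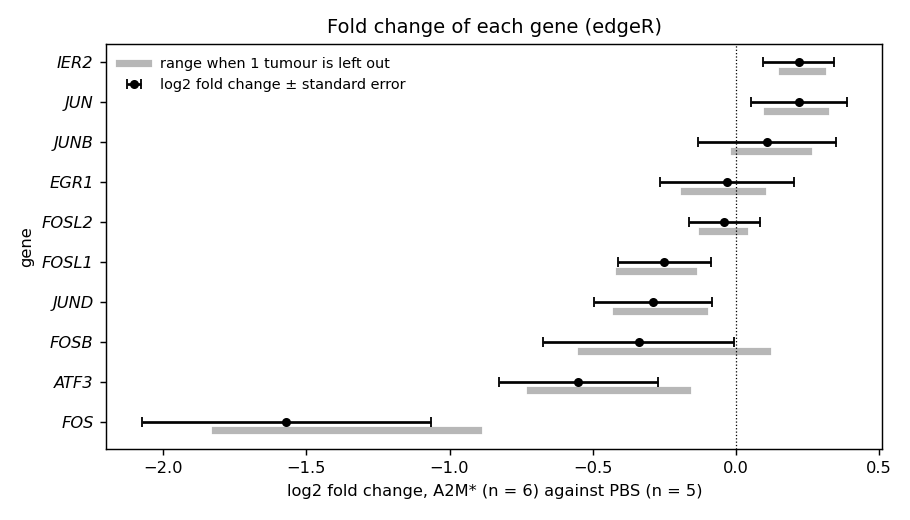
The log2 fold change of each gene in A2M* tumours (n = 6) against PBS tumours (n = 5) from edgeR. Points with bars give the value and its standard error, and grey bars the range when each tumour is left out in turn. FOS has the most negative value, -1.57, with a range of -1.82 to -0.90, and the grey bars of FOSB, FOSL2, EGR1 and JUNB cross 0.

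FOS, the founding FOS protein, lies on chromosome 14 (GRCh37, chr14:75745529-75748933, plus strand, 4 exons). Its expression in CPM (counts per 1000000 counts after TMM normalization) was 1.09, 2.74, 11.4, 6.26 and 1.65 in PBS tumor_123 to tumor_127, and in the A2M* group the lowest, median and highest values were 1.13, 1.40 and 2.28 CPM. PBS tumor_125 and tumor_126 lay above all others, tumor_127 lay within the A2M* range, tumor_123 was the lowest of all 11, and all 6 A2M* tumours were below the PBS median. The means were 4.63 ± 4.29 CPM (SD, n = 5) and 1.58 ± 0.477 CPM (SD, n = 6). The log2 fold change was -1.57 with a standard error of 0.505 (edgeR, unadjusted p = 0.00781, adjusted p = 0.64), and a two-sided exact permutation test of log2 CPM over the 462 labelings gave p = 0.0974. The gene rested on only 32 to 378 counts per tumour. Without tumor_125 the log2 fold change was -0.90 (edgeR, unadjusted p = 0.0459, adjusted p = 1.0), and without tumor_125 and tumor_126 it was -0.23 (edgeR, unadjusted p = 0.451, adjusted p = 0.854). These 2 tumours were chosen for their high FOS after the data had been seen, so leaving them out had to bring the value nearer to 0. In that fit edgeR held 0 of the 10 genes at an unadjusted p under 0.05, against 6.39% of all genes.

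FOSB (chr19:45971253-45978437, plus strand, 4 exons), the close relative of FOS, had 1.43, 2.77, 7.03, 3.36 and 2.44 CPM in PBS tumor_123 to tumor_127 and, in the A2M* group, 1.88 at the lowest, 2.57 at the median and 4.37 at the highest. Again tumor_125 was the highest and tumor_123 the lowest of all 11, with the A2M* tumours between them. The log2 fold change was -0.34 with a standard error of 0.333 (edgeR, adjusted p = 0.887). It turned to 0.11 without tumor_125 and to 0.28 without tumor_125 and tumor_126.

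ATF3 (chr1:212738676-212794119, plus strand, 4 exons), the stress-induced partner, had 21.1, 37.8, 81.5, 44.4 and 27.2 CPM in the PBS tumours and 20.3, 30.2 and 36.7 CPM as the lowest, median and highest of the A2M* group. Once more tumor_125 and tumor_126 were highest, and all 6 A2M* tumours fell below the PBS median although the ranges overlapped. For ATF3 the log2 fold change was -0.55 with a standard error of 0.277 (edgeR, unadjusted p = 0.0672, adjusted p = 0.734). The value was 0.01 without tumor_125 and tumor_126 and -0.17 without tumor_125 alone.

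EGR1 (chr5:137801168-137804992, plus strand, 2 exons) had 0.862, 1.61, 1.99, 1.76 and 1.36 CPM in PBS tumor_123 to tumor_127 and 0.885, 1.58 and 1.93 CPM as the lowest, median and highest of the A2M* group. The groups covered nearly the same range, with tumor_125 highest and tumor_123 lowest. Its log2 fold change was -0.03 with a standard error of 0.234 (edgeR, adjusted p = 0.988).

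FOSL1 (chr11:65659520-65668044, minus strand, 4 exons), the dominant FOS family transcript here, had 109, 137, 119.9, 116 and 104 CPM in PBS tumor_123 to tumor_127. In the A2M* group the lowest value was 65.2, the median 93.2 and the highest 154 CPM. Of the 6 A2M* tumours, 5 lay below every PBS tumour (65.2 to 96.9 CPM) and tumor_112 lay above every one of them at 154 CPM. The log2 fold change over all tumours was -0.25 with a standard error of 0.162 (edgeR, unadjusted p = 0.153, adjusted p = 0.816). Without tumor_112 the groups no longer overlapped, as in 1.73% of all genes then, and the value was -0.41 with a standard error of 0.109 (edgeR, unadjusted p = 0.00228, adjusted p = 0.398), where 8.13% of all genes had an unadjusted p under 0.05. Since only tumor_112 lay above the PBS tumours, leaving it out had to separate the groups and lower the value. The fit without it is therefore no evidence of a difference. The highest FOSL2 was in tumor_112 as well, and its number lies apart from the other 10, but what else set it apart was not given in the sources used here.

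FOSL2 (chr2:28615315-28640184, plus strand, 4 exons) had the smallest spread within the groups of the 10 genes, between 59.0 and 80.2 CPM in the PBS group and between 53.7 and 85.1 CPM in the A2M* group. The ranges overlapped almost entirely, and the log2 fold change was -0.04 with a standard error of 0.124 (edgeR, adjusted p = 0.971).

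JUN (chr1:59242517-59249720, minus strand, 1 exon), the classical partner of FOS, had 167, 153, 132.1, 132.2 and 159 CPM in PBS tumor_123 to tumor_127 and 123.5, 158 and 239 CPM as the lowest, median and highest of the A2M* group. Here tumor_131 and tumor_112 stood out at 239 and 231 CPM, while the other 4 A2M* tumours lay between 123.5 and 176. JUN had a log2 fold change of 0.22 with a standard error of 0.168 (edgeR, unadjusted p = 0.203, adjusted p = 0.842).

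JUNB (chr19:12902300-12904129, plus strand, 1 exon), which often restrains JUN, had 122, 88.5, 141, 78.1 and 155 CPM in the PBS tumours and 62.3, 135 and 166 CPM as the lowest, median and highest of the A2M* group. The A2M* tumours held both the lowest (tumor_130) and the highest (tumor_132) value, and the log2 fold change was 0.11 with a standard error of 0.241 (edgeR, adjusted p = 0.958). An exon of HOOK2 lies on the other strand at this locus, and because the library kit does not mark the strand, reads of both genes cannot be told apart there. JUND (chr19:18390504-18392432, minus strand, 1 exon) had 38.6, 30.0, 54.4, 23.1 and 41.7 CPM in the PBS tumours and 18.9, 32.1 and 37.7 CPM as the lowest, median and highest of the A2M* group. All 6 A2M* tumours lay below the PBS median, yet within or near the PBS range, and the log2 fold change was -0.29 with a standard error of 0.205 (edgeR, unadjusted p = 0.186, adjusted p = 0.838).

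IER2 (chr19:13261225-13265725, plus strand, 2 exons) had 242, 186, 198, 173 and 228 CPM in PBS tumor_123 to tumor_127 and 168, 245 and 291 CPM as the lowest, median and highest of the A2M* group. Among the A2M* tumours 5 lay above the PBS median, and tumor_130 was the lowest of all 11. Its log2 fold change was 0.22 with a standard error of 0.124 (edgeR, unadjusted p = 0.102, adjusted p = 0.772), and without tumor_130 it was 0.30 (edgeR, unadjusted p = 0.00953, adjusted p = 0.738). Since tumor_130 was the lowest of the A2M* group, leaving it out had to raise this value. An unnamed gene on the other strand overlaps the exons of IER2. Apart from FOS, the genes that came under an unadjusted p of 0.05 when 1 tumour was left out were ATF3 and IER2 without tumor_123 (6.78% of all genes), JUND without tumor_126 (10%), ATF3 without tumor_127 (6.91%), FOSL1 without tumor_112 (8.13%) and IER2 without tumor_130 (6.16%). With FOS these were 3 of the 10 genes in the first fit and 2 in each of the others.

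Single tumours stood out across several of the genes. PBS tumor_125 was the highest of all 11 in 5 of the 10 genes (FOS, FOSB, JUND, EGR1 and ATF3), and PBS tumor_123, of the same group, was the lowest in 3 of them (FOS, FOSB and EGR1). A2M* tumor_130 was lowest in JUN, JUNB, JUND and IER2, and tumor_132 was lowest in FOSL1, FOSL2 and ATF3 but highest in JUNB. In how many of all genes tested each tumour was highest or lowest was not counted. Genes that vary together, as FOS, FOSB and ATF3 did, are also not separate observations. The SD of log2 CPM within the groups, pooled over both, was 0.95 for FOS, which placed it at percentile 99.8 of all genes tested, whatever their level. This spread of FOS lay mainly in the PBS group, from 1.09 to 11.4 CPM, against 1.13 to 2.28 CPM in the A2M* group. FOSB stood at percentile 98.0, ATF3 at 96.1, JUNB at 94.8 and EGR1 at 91.5, so that 5 of the 10 genes were at or above percentile 90. IER2 and FOSL2 were nearer the middle, at percentiles 65.9 and 64.5. Counting error alone would give an SD of 0.197 for FOS, 0.167 for FOSB and 0.232 for EGR1 on the log2 scale, against 0.0491 for ATF3 and 0.0256 for JUNB. The ratio of the highest to the lowest tumour was 10.4 for FOS, 4.93 for FOSB, 4.01 for ATF3 and 1.59 for FOSL2.

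**Figure D3:**
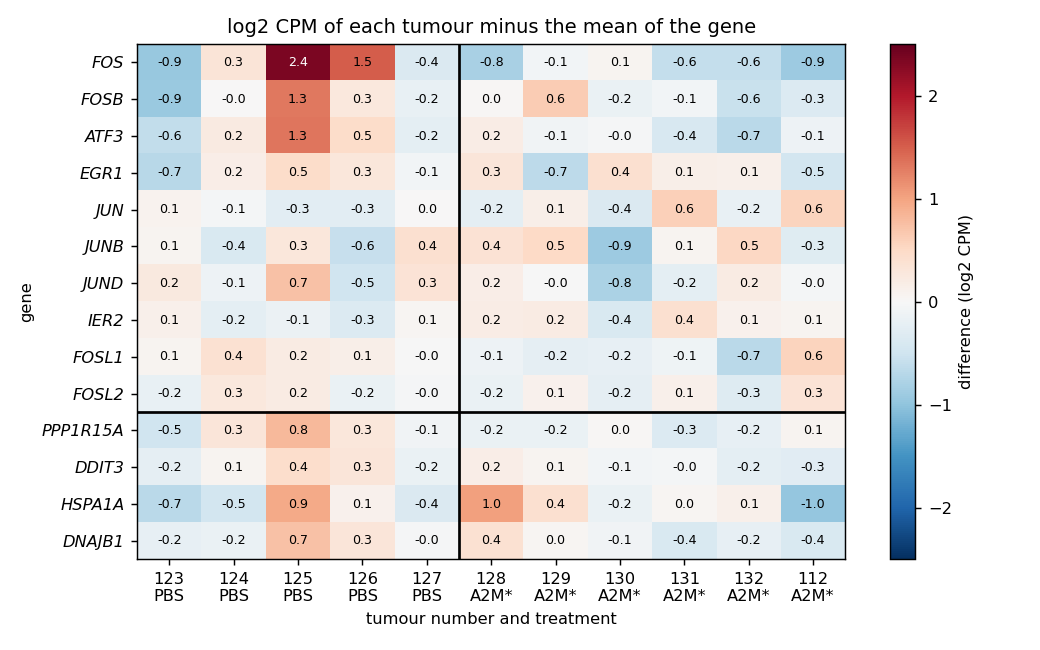
Difference of each tumour's log2 CPM from the mean of the gene over 11 tumours, with PBS tumours left and A2M* tumours right of the vertical line and 4 stress genes under the horizontal line. FOS, FOSB and ATF3 are highest in tumor_125, where PPP1R15A, DDIT3 and DNAJB1 are also highest, whereas HSPA1A is as high in tumor_128, which has low FOS.

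To describe which genes varied together, each of the other 9 was related to FOS over the 11 tumours (log2 CPM, 100000 permutations, adjusted over the 9 relations). ATF3 varied with FOS, with Pearson's r = 0.87 (permutation p = 0.00084, adjusted p = 0.00756) and Spearman's rho = 0.75 (permutation p = 0.00983, adjusted p = 0.0566). FOSB varied with FOS as well, with r = 0.80 (permutation p = 0.00474, adjusted p = 0.0213) and rho = 0.74 (permutation p = 0.0126, adjusted p = 0.0566). With values centred within the groups r was 0.86 for both genes. Leaving out tumor_125 and tumor_126, the farthest from the median of FOS, left r = 0.51 for ATF3 (permutation p = 0.161) and 0.56 for FOSB (permutation p = 0.121). Over the 9 tumours left, rho was 0.55 and 0.57. Leaving out the extremes of FOS narrows its range, so the smaller r cannot show whether the relations fail without these 2 tumours. Of these 2, tumor_125 moved r more. Without it alone r was 0.70 for ATF3 and 0.57 for FOSB (permutation, adjusted p = 0.0832 and 0.211), and without tumor_126 alone it was 0.88 and 0.84 (permutation, adjusted p = 0.0363 for both). Within the 6 A2M* tumours r was 0.10 for ATF3 (exact permutation p = 0.843) and 0.48 for FOSB (exact permutation p = 0.369), and none is given over the 5 PBS tumours, since r was set for 6 or more. FOS, FOSB, ATF3 and EGR1, 4 of the 10 genes, ranked those 5 tumours in the same order, from tumor_123 at the lowest through tumor_127, tumor_124 and tumor_126 to tumor_125 at the highest. How many of all genes tested shared this order was not counted, so it cannot be called particular to these genes.

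The other immediate early genes did not pass. For EGR1 r was 0.52 and rho 0.64 (permutation, adjusted p = 0.192 and 0.119), and for IER2 r was -0.63 and rho -0.61 (permutation, adjusted p = 0.11 and 0.119), a negative value. For JUN r was -0.49 and rho -0.56 (permutation, adjusted p = 0.196 and 0.137), and for JUNB, JUND, FOSL1 and FOSL2 r lay between -0.20 and 0.24 and rho between -0.30 and 0.23. Among the other 36 pairs, a family added after the data had been seen, 0 passed at 0.05. The highest r was that of FOSB with ATF3 (r = 0.86, rho = 0.82, permutation, adjusted p = 0.05 and 0.0949). Next were JUNB with JUND (r = 0.79, rho = 0.74, permutation, adjusted p = 0.0556 and 0.113) and FOSL1 with FOSL2 (r = 0.74, rho = 0.73, permutation, adjusted p = 0.0864 and 0.113). Without the 2 tumours farthest from the median of the first gene named in each pair, r was 0.56, 0.46 and 0.46. JUN with EGR1 was negative (r = -0.57, rho = -0.79, permutation, adjusted p = 0.323 and 0.0949). Without the 2 tumours farthest from the median of JUN its r was -0.92, a value that was not tested and was picked among the 36 pairs.

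**Figure D4:**
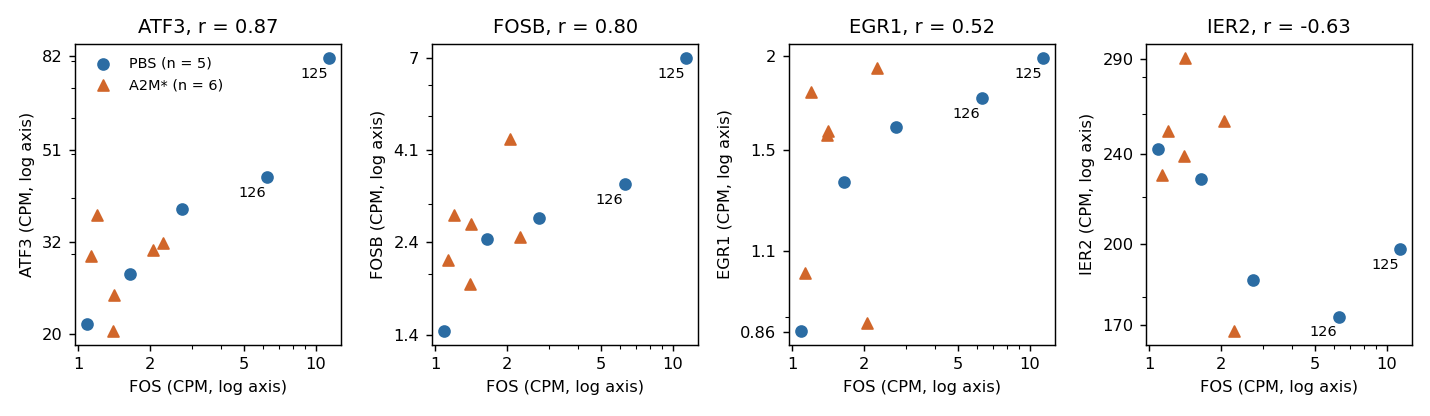
ATF3, FOSB, EGR1 and IER2 against FOS in 11 tumours (CPM, both axes log), with circles for 5 PBS and triangles for 6 A2M* tumours and tumor_125 and tumor_126 numbered. ATF3 and FOSB are high in tumor_125, at the highest FOS of 11.4 CPM, and r is 0.87 and 0.80 with FOS, falling to 0.51 and 0.56 without the 2 numbered tumours, whereas IER2 has r = -0.63.

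The genes whose pattern was most like each of these were taken from the 13706 genes whose mean log2 CPM was 1 or more, as a description over the 11 tumours. For FOS they were TIPARP (r = 0.943), EIF3H (0.941), a subunit of a translation initiation factor, and EEF1A1 (0.939), a translation elongation factor, and without tumor_125 and tumor_126 r was 0.84, 0.89 and 0.84 over the 9 left. For ATF3 the first was PPP1R15A (r = 0.916), the stress-induced phosphatase subunit that reverses the block of translation, with r = 0.73 without those tumours. For FOSB they included ADPRM and OTUD1 (r = 0.919 and 0.863), for JUN they were RGAG4, OAF and HCLS1 (0.961, 0.95 and 0.941), and for IER2 they were ZNF503, PABPN1 and LRWD1 (0.957, 0.94 and 0.937). For JUNB they included CEBPD (r = 0.963), an early response zipper gene. The other nearest genes were SAMD1 and MEX3D for JUNB, BCAR1, DAPK3 and NDUFC1 for JUND, SMURF1, PEX26 and TTC7B for FOSL1, SIRPB1, YY1AP1 and FOXD1 for FOSL2, AIG1 and PTGER4 for ATF3, and ENTPD3-AS1, TYW5 and ZNF330 for EGR1. The number of genes with r above 0.8 ran from 8 for EGR1 to 430 for JUNB, and all such points share their libraries.

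FOS, FOSB and ATF3 were highest in the same tumour, tumor_125, as were EGR1 and JUND, while JUN was not. The 250 bases before the transcription starts of FOS, FOSB, ATF3, EGR1 and JUN are shown (RefSeq promoters, placed on GRCh37 by exact match). The sequence of JUND is not shown. Capitals mark matches on either strand to TGACG, the core of the cyclic AMP response element, which reads CGTCA where it lies on the minus strand, to TGACATCA, a variant of the AP-1 and ATF element, and to the CArG box, bound by serum response factor.
FOS, chr14:75745281-75745530, plus strand: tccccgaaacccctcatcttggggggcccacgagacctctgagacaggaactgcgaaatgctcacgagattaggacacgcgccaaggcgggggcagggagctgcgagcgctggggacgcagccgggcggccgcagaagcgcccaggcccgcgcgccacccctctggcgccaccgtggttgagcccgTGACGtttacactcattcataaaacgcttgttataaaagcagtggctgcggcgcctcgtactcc
FOSB, chr19:45971004-45971253, plus strand: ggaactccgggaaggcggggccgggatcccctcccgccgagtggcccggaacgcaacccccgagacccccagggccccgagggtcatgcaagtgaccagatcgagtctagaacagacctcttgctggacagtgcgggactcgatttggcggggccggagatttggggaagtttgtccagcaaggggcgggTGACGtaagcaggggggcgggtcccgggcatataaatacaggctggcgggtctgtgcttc
ATF3, first start, chr1:212738499-212738748, plus strand: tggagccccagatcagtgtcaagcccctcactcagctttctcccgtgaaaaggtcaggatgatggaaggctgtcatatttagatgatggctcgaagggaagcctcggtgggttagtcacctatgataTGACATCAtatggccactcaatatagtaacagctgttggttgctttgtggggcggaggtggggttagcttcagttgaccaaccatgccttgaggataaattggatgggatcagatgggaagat
EGR1, chr5:137800918-137801167, plus strand: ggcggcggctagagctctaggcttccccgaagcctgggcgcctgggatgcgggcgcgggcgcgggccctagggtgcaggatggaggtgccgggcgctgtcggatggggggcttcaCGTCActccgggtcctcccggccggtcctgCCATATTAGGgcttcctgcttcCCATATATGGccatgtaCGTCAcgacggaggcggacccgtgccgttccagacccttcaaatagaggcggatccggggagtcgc
JUN, chr1:59249720-59249969, minus strand: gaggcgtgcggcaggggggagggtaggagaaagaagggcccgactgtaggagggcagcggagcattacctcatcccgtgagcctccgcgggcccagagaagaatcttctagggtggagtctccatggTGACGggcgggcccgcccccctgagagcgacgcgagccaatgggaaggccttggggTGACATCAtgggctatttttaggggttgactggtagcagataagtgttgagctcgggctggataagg

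FOS and FOSB each held 1 TGACG, with its first base 64 and 60 bases before the start. Neither held another motif searched in these 250 bases, and sites farther upstream, CArG boxes included, were not searched for any gene. ATF3 held TGACATCA upstream of its first start and no motif searched upstream of its second. JUN held the same 8 letters 67 bases before its start beside a TGACG farther upstream. EGR1 held 2 CArG boxes, at 105 and 83 bases, and 2 TGACG on the minus strand. Of the 9 genes with a promoter in the table, 8 held TGACG, which was in 21.2% of 35116 promoter windows of that length. TGACATCA was in 2 of them (2.37% of windows), the full element TGACGTCA, which contains TGACG on both strands, in 1, JUND (1.65%), the CArG box in 1, EGR1 (1.16%), and the AP-1 element TGACTCA in 0 (4.2%). A match describes the letters of this window and not binding, and the part of these motifs in the pattern over the tumours was not tested.

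The genes around AP-1 showed no change that passed the adjusted test. Of the 17 other zipper partners 13 were tested, and 5 had a higher and 8 a lower fitted value (0 passed), with ATF4, the effector of the integrated stress response, at 339 ± 19.8 CPM in the PBS group and 309 ± 15.8 CPM in the A2M* group (log2 fold change -0.13, edgeR, unadjusted p = 0.0476, adjusted p = 0.699). DDIT3, its target, had 28.0, 34.0, 44.4, 40.0 and 28.9 CPM in PBS tumor_123 to tumor_127, highest in tumor_125 and tumor_126 as FOS was. Of 29 other immediate early genes 27 were tested, with 12 higher, 15 lower, 0 past the test and a median of -0.0152. PPP1R15A had 88.2 CPM in tumor_125 against 35.9 to 62.0 CPM in the other PBS tumours and 39.4 to 52.3 CPM in the A2M* group (log2 fold change -0.36, edgeR, adjusted p = 0.71), and KLF2, a flow-regulated factor of low level here, had 1.64 ± 0.281 and 2.30 ± 0.62 CPM (0.47, edgeR, unadjusted p = 0.0298, adjusted p = 0.663).

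The 17 upstream regulators, MAP kinases and the factors through which they switch FOS on, had a narrow range of fitted values, from -0.26 to 0.04 on the log2 scale, with 5 higher, 12 lower and 0 past the test. The kinase MAPK14 had a log2 fold change of 0.03, and RPS6KA1 and MAPK3 had -0.21 and -0.17 (edgeR, adjusted p = 0.648 and 0.7). Of the 10 feedback inhibitors of the MAP kinase pathway 3 were higher, 7 lower and 0 past the test, and DUSP1, the phosphatase that is itself an immediate early gene, had 30.9 ± 10.8 CPM in the PBS group and 25.3 ± 3.33 CPM in the A2M* group (-0.29, edgeR, adjusted p = 0.803). Of the 16 AP-1 target genes 8 were higher, 8 lower and 0 past the test, with a median of -0.0141. Among them CCND1, the cyclin of the early cell cycle, had 344 ± 25.9 and 397 ± 49.3 CPM (0.21, edgeR, unadjusted p = 0.0395, adjusted p = 0.697), and TIMP1, a protease inhibitor, had 103 ± 17.2 and 82.8 ± 18.7 CPM (-0.32, edgeR, adjusted p = 0.71).

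Heat shock and hypoxia genes also answer to stress and to handling of tissue, and their values are given beside those of FOS. Both lists were chosen with earlier results of these data known. Of 9 heat shock genes 8 had a higher and 1, DNAJB1, a lower fitted value. The median log2 fold change was 0.293. HSPA1A and HSPA1B had 0.16 and 0.09 (edgeR, adjusted p = 0.951 and 0.971), and DNAJB1 had -0.26 (edgeR, adjusted p = 0.828). DNAJB1 was highest in tumor_125 at 381 CPM, as FOS was. HSPA8, HSPH1, HSP90AA1 and HSPE1, 4 of the 9, were higher at an unadjusted p under 0.05 in edgeR, against 3.55% of all genes. The groups did not overlap in 1, HSPA8, against 0.71% of all genes, and 0 of the 9 were past the adjusted test. HSPA8, the constitutive chaperone, had 1090.3 ± 131.1 CPM in the PBS group and 1604 ± 309 CPM in the A2M* group (0.56, edgeR, unadjusted p = 0.000805, adjusted p = 0.599). The stress-inducible HSPA1A had 170.3, 197, 521, 293 and 211 CPM in PBS tumor_123 to tumor_127, again highest in tumor_125 within that group, but 555 CPM in A2M* tumor_128, where FOS was only 1.20 CPM. HSPA1A and HSPA1B are near-identical copies, and the split of reads between them is uncertain. All 10 hypoxia genes had a lower fitted value in the A2M* group, with a median of -0.595. At an unadjusted p under 0.05 edgeR held 7 of them as lower, against 3.53% of all genes, and 0 of the 10 were past the adjusted test. The summed level of the 10 ranged from 1608 to 4509 RPM in the PBS group and from 1274 to 3143 RPM in the A2M* group. SLC2A1, the glucose transporter, had a log2 fold change of -0.77 (edgeR, adjusted p = 0.64). The part of hypoxia, of heat shock and of handling in the FOS values was not tested.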

How the data were processed

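RNA of 11 PC-3 tumours was sequenced from TruSeq libraries. The authors sorted reads by species with xenome, mapped the human reads to hg19 with TopHat2 after bcl2fastq 1.8.4, and used featureCounts to count them per RefSeq gene. The strand setting and the versions of the other tools were not given in the sources used here. The authors deposited a count per gene without normalization, RPM (the count divided by the total of the tumour) and RPKM (RPM divided by exon length). Mouse reads were not analysed here.

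From the counts, low genes were left out by filterByExpr and TMM factors were applied before edgeR 4.0.16 (quasi-likelihood test, Benjamini-Hochberg adjusted p under 0.01 over 16630 genes) in R 4.3.3, without covariates. The fit was tested on simulated data. Log2 CPM used a prior count of 2. Relations used permutation of the tumours, and the order of genes used log2(RPKM + 0.1). Tests were two-sided. Totals ranged from 16958533 to 35874381 counts, and the biological coefficient of variation was 13.9%.

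The 10 genes, and the lists of related genes, were chosen with earlier results of these data known. Named besides the 10 were, of each list, the 2 higher and the 2 lower genes of smallest p (HSPA1A, HSPA1B and DNAJB1 always), and each gene's 3 most similar genes by Pearson's r, of which 2 genes are not reported here. Marker genes were named, and PPP1R15A and DDIT3 shown by tumour, after their values had been seen. Alternatives were RLE, library size only, no filter, at least 10 counts in every tumour, DESeq2 1.42.0, limma-voom (limma 3.58.1), other thresholds and each tumour left out in turn. Positions are from GENCODE on GRCh37 and promoters from RefSeq. FOSL1 had no promoter in the table. Figures were drawn with matplotlib 3.10.9.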

Additional observations from a re-analysis of the deposited data

Results flagged for a closer look

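Among 32 groups of values searched, 2 held a tumour far from the others of its group, where chance gives about 1 in 20 groups, or 1.6 here. FOSB was 4.37 CPM in A2M* tumor_129, while the rest of that group ranged from 1.88 to 2.81 CPM, and this tumour had the fewest counts. FOSL1 was 154 CPM in A2M* tumor_112, while the rest ranged from 65.2 to 96.9 CPM.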

How the results depend on the processing

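No paired analysis was possible because the groups share no tumour numbers. No gene passed in edgeR under any normalization or filter, whereas DESeq2 called 1 gene (REP15, none of the 10), and 241 genes, 1 of the 10 among them (FOS), had an unadjusted p of 0.01 or less in edgeR and in DESeq2. At an unadjusted p under 0.05, limma-voom (7.09% of all genes), the exact permutation test and the fit without tumor_125 and tumor_126 (6.39%) each held 0 of the 10 genes, and fits without 1 tumour held 1 to 3 (4.09% to 10.1%). The number of the 10 genes whose groups did not overlap was 0 to 1 without 1 tumour, and 1 only without tumor_112, against 0.806% to 2.32% of all genes (1.73% without tumor_112). The number of genes whose relation to FOS passed at 0.05 was 0 without tumor_125 and tumor_126, which are the extremes of FOS. It was 0 to 2 without 1 tumour (0 without tumor_125, 1 without tumor_123). The number of separated neighbours in the order of levels was 5 to 6.

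Of 180 log2 fold changes recomputed, 165 kept their direction and side of the threshold and 15 changed sign, in FOSB, FOSL2, JUNB, EGR1 and ATF3. Without tumor_125 and tumor_126 FOSB was 0.28, EGR1 0.21 and ATF3 0.012, and with library sizes alone FOSL2 was 0.01 and EGR1 0.019. Without 1 tumour FOSB ranged from -0.54 to 0.11, FOSL2 from -0.12 to 0.028, JUNB from -0.0063 to 0.25 and EGR1 from -0.18 to 0.09. The r of JUND with FOS was -0.0864 centred within groups and -0.51 without tumor_125 and tumor_126, and without 1 tumour it ranged from -0.61 to 0.36, and that of FOSL2 from -0.0668 to 0.41. The cause was not tested. Counts of 32 to 378 per tumour limit FOS, and EGR1 had 15 to 66.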
